A study of Mus musculus with 6 samples.

Results

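The receptors for type I and type II cytokines and the Janus kinases that signal from them were compared between H10 and C8 cells. The set was a list of 34 genes given by name, with no threshold on a measured value. Of these, 32 were represented by a feature of the array annotated to 1 gene symbol, out of 19930 genes measured in all. Il2rg, the common gamma chain, was not analysed here, and Jak3 was not counted because its feature is annotated to both Jak3 and Insl3. Both lines were retrovirally transduced derivatives of RAW264.7, a mouse macrophage cell line, that express Lifeact-mEGFP, a green label of actin filaments, and each was grown from a limiting dilution of cells that resisted puromycin. H10 is the osteoclastogenic line, which fused into multinucleated osteoclasts, and C8 is the line that did not fuse. All cultures received purified recombinant RANKL at 60 ng/mL for 2 days, and 3 arrays were run for each line. Since each phenotype is represented by 1 line, what goes with fusion and what sets these clones apart in other ways cannot be told apart. Whether the 3 arrays of a line stand for separate cultures is not stated, and the p-values cover only the spread between arrays, which may be technical. In such bulk samples a lower value can mean fewer cells with a transcript or less of it per cell, and these cannot be told apart.

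Type I cytokine receptors bind interleukins, colony-stimulating factors, growth hormone and erythropoietin, while type II receptors bind interferons and the IL-10 family. Neither kind has kinase activity of its own. Janus kinases (JAKs) held on the inner part of the receptor chains phosphorylate STAT transcription factors, which then enter the nucleus. In the monocyte lineage these receptors matter for osteoclastogenesis (OCG): GM-CSF, IL-3, IL-4 and the interferons are known to hold back the RANKL-driven formation of osteoclasts from their precursors. Many of the receptors are built from a private chain, which recognises the ligand, and a shared chain, which carries the signal.

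Values are log2 expression values, and a log2 fold change is the H10 mean minus the C8 mean. Among the 32 members measured, 3 were higher in H10 cells at an adjusted p under 0.05 from limma, Csf2rb, Csf2rb2 and Il7r, and 0 were lower. At an unadjusted p under 0.05 the counts were 8 and 1, beside 6.1% and 7.67% of all genes. The called members were 9.38% of the members for the higher side, while 1.85% of all genes were higher and 1.04% were lower by the same rule. The log2 fold changes ran from -0.30 to 2.38 with a median of 0.00, beside a median of -0.03 over all genes. All H10 arrays lay above all C8 arrays for 9 members, or 28.1%, beside 7.74% of all genes, and all C8 arrays lay above all H10 arrays for 2 members, or 6.25%, beside 12.7% of all genes. Il7r and Ghr are named in the paper from these same arrays, so that they are not independent evidence of a direction. Il7r was also among the genes that the paper followed by RT-qPCR during OCG in bone marrow monocytes and RAW264.7 cells. There it reports a significant rise for CD109 only, in a comparison over days and not between these lines. On all 6 arrays, 19 members lay above the median feature of the array, and 10 members lay under it. The 10 dim members were Il2ra, Il2rb, Il21r, Il12rb2, Il27ra, Lifr, Osmr, Csf3r, Lepr and Il10ra; background was not measured, and a small difference in such a gene may be hidden.

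**Figure D1:**
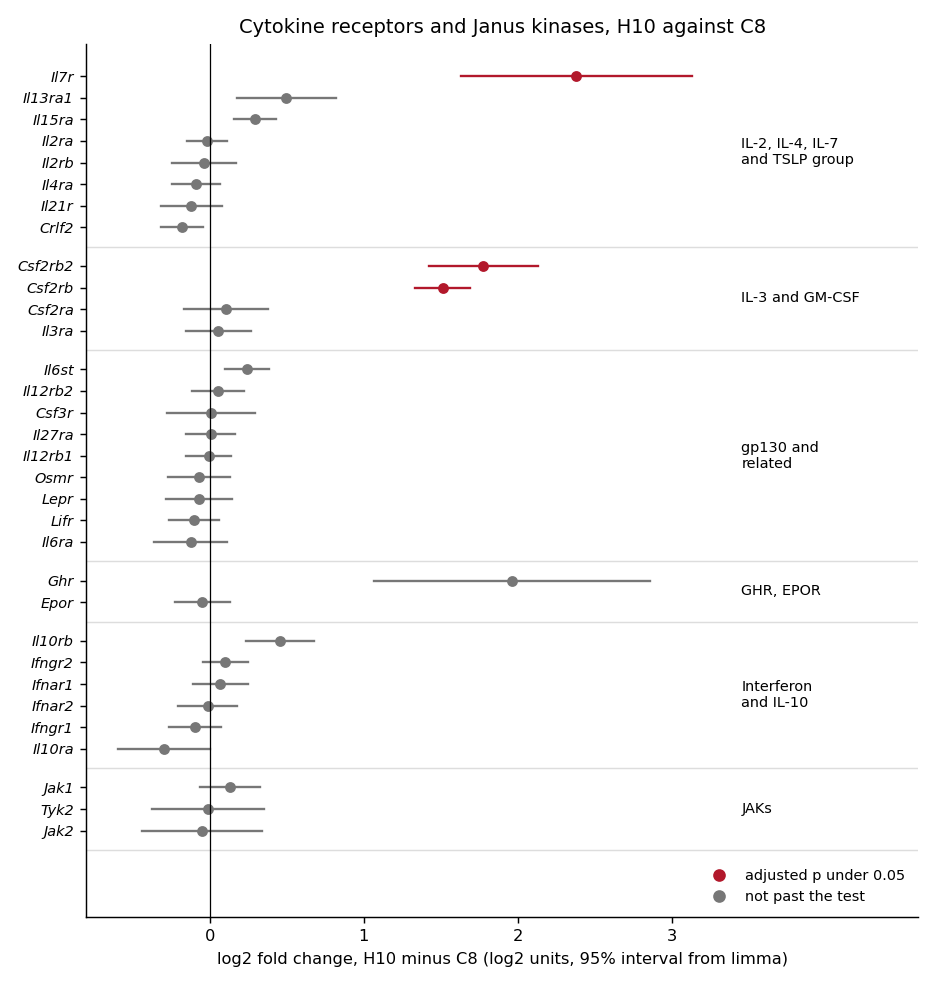
Log2 fold change (H10 minus C8, x axis) of the 32 members, grouped by receptor family, with bars for the 95% interval from limma on 3 arrays per line. Csf2rb2, Csf2rb and Il7r, in red, passed the test at 1.78, 1.51 and 2.38, and Ghr, at 1.96, had a wide interval.

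The clearest rise was in the shared beta chain of the GM-CSF, IL-3 and IL-5 receptors. Mice have a pair of these chains in neighbouring genes: Csf2rb encodes the chain that serves all these ligands, and Csf2rb2 encodes a chain that serves IL-3 alone. Csf2rb had values of 10.17, 10.23 and 10.25 in H10 cells, against 8.76, 8.58 and 8.77 in C8 cells. Every H10 array was above every C8 array, and the arrays of a line lay close together. The mean was 10.22 ± 0.04 (SD, n = 3) for H10 against 8.70 ± 0.11 (SD, n = 3) for C8, or 2.85-fold (log2 fold change 1.51 with a standard error, SE, of 0.07 and adjusted p = 0.00059 from limma). Csf2rb2 had values of 11.24, 11.6 and 11.58 in H10 cells, against 9.44, 9.78 and 9.87 in C8 cells. Replicate 1 was the lowest array in both lines, and the lines did not overlap. The mean was 3.43-fold higher, at 11.47 ± 0.20 against 9.70 ± 0.23 (SD, n = 3; log2 fold change 1.78 with an SE of 0.15 and adjusted p = 0.00329 from limma). The 2 genes are close relatives, and whether the probes of one also read transcripts of the other was not tested. Both remained past the test in each of 14 alternative settings, with adjusted p-values up to 0.0133 for Csf2rb and 0.0235 for Csf2rb2.

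The private chains that pair with them did not pass the test. Csf2ra, which gives the GM-CSF receptor its ligand specificity, had values of 11.19, 11.24 and 11.16 in H10 cells, against 11.34, 10.95 and 10.98 in C8 cells. The H10 values lay inside the range of the C8 values, which was set by C8 replicate 1 (log2 fold change 0.11, 95% interval -0.16 to 0.38, adjusted p = 0.834). Il3ra, the private chain for IL-3, had 8.56, 8.49 and 8.39 in H10 cells, against 8.32, 8.38 and 8.57 in C8 cells, with overlap and a log2 fold change of 0.06 (95% interval -0.15 to 0.27, adjusted p = 0.904). Il5ra, the private chain for IL-5, which was taken from the list of further family members, had 5.94, 5.87 and 5.75 in H10 cells, against 5.87, 5.79 and 5.94 in C8 cells, a log2 fold change of -0.01 (95% interval -0.20 to 0.17, adjusted p = 0.979). These values lay under the lower quartile of every array. The ligand genes Csf2, Il3 and Il5 had log2 fold changes of -0.04, -0.06 and -0.03, with adjusted p-values of 0.966, 0.914 and 0.973, and their highest values on any array were 5.78, 5.55 and 5.92, under the lower quartile of every array (6.34 to 6.44).

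Il7r, the private chain of the IL-7 receptor, which also serves TSLP, had the largest log2 fold change of the members. It is best known from lymphocytes. Its values were 7.79, 9.09 and 8.7 in H10 cells, against 6.26, 5.98 and 6.2 in C8 cells. The H10 arrays were spread over more than a log2 unit, with replicate 1 the lowest, and all lay above the C8 arrays. The mean was 8.53 ± 0.67 against 6.15 ± 0.15 (SD, n = 3), which is 5.21-fold, with a 95% interval of 3.10-fold to 8.74-fold (log2 fold change 2.38 with an SE of 0.31 and adjusted p = 0.0162 from limma). It was the only member that also met the fold of 5 of the study's methods, beside 0.206% of all genes. Since the C8 values lay under the lower quartile of their arrays, and background was not measured, the size of the fold is uncertain. The log2 fold change stayed between 2.10 and 2.75 with any 1 array left out, but the test was not passed without H10 replicate 3 (2.29, adjusted p = 0.0817), C8 replicate 1 (2.44, 0.0578), C8 replicate 2 (2.30, 0.0793) or C8 replicate 3 (2.41, 0.079).

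None of the other chains of this group passed the test. Crlf2, which pairs with Il7r in the TSLP receptor, had values of 8.54, 8.5 and 8.54 in H10 cells, against 8.74, 8.72 and 8.66 in C8 cells. It was lower on every H10 array but did not pass the test (log2 fold change -0.18 with an SE of 0.06 and adjusted p = 0.258). Il15ra, which binds IL-15 and presents it to other cells, had values of 8.6, 8.62 and 8.63 in H10 cells, against 8.35, 8.27 and 8.35 in C8 cells. The lines did not overlap, and the log2 fold change was 0.29 (SE 0.06 and adjusted p = 0.0663). Its ligand gene Il15 had values of 9.96, 9.92 and 10.06 in H10 cells, against 9.68, 9.63 and 9.56 in C8 cells, with no overlap and a log2 fold change of 0.36 (SE 0.07 and adjusted p = 0.061). Neither passed the test. Il13ra1, which joins Il4ra in the receptor for IL-4 and IL-13 of non-lymphoid cells, had values of 10.82, 10.79 and 10.85 in H10 cells, against 10.63, 10.11 and 10.23 in C8 cells. C8 replicate 1 lay nearest to the H10 arrays (log2 fold change 0.50 with an SE of 0.13 and adjusted p = 0.174), and without that array the adjusted p was 0.0176. Il4ra itself had 8.4, 8.27 and 8.31 in H10 cells, against 8.46, 8.42 and 8.37 in C8 cells, which overlapped, and a log2 fold change of -0.09 (95% interval -0.24 to 0.06, adjusted p = 0.72). Il2ra, Il2rb and Il21r, chains best known from T, B and NK cells, had log2 fold changes of -0.02, -0.04 and -0.12, and all 3 lay under the median of every array. Il2rb, which joins Il15ra in the IL-15 receptor, had 6.63, 6.86 and 6.82 in H10 cells, against 6.72, 6.89 and 6.81 in C8 cells, with overlap.

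Ghr, the growth hormone receptor, which signals as a pair of identical chains through JAK2 and STAT5, was the member nearest to the threshold from outside. Its values were 10.12, 9.2 and 9.76 in H10 cells, against 8.51, 7.43 and 7.26 in C8 cells. The lines did not overlap, and replicate 1 was the highest array in each line. The means were 9.69 ± 0.46 and 7.73 ± 0.68 (SD, n = 3), which is 3.89-fold, with a 95% interval of 2.09-fold to 7.24-fold (log2 fold change 1.96 with an SE of 0.37 and adjusted p = 0.0611 from limma). The interval is not adjusted for the number of features, which is why it can leave out 1-fold while the adjusted p misses the threshold. Without C8 replicate 1 the adjusted p was 0.0243, and it lay on either side of the threshold over the 14 alternatives (0.00758 to 0.208, under 0.05 in 7 of them). Epor, the erythropoietin receptor, which is built in the same way, had a log2 fold change of -0.05 (95% interval -0.23 to 0.13, adjusted p = 0.909). Gh, the gene of growth hormone itself, had -0.12 (adjusted p = 0.633).

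**Figure D2:**
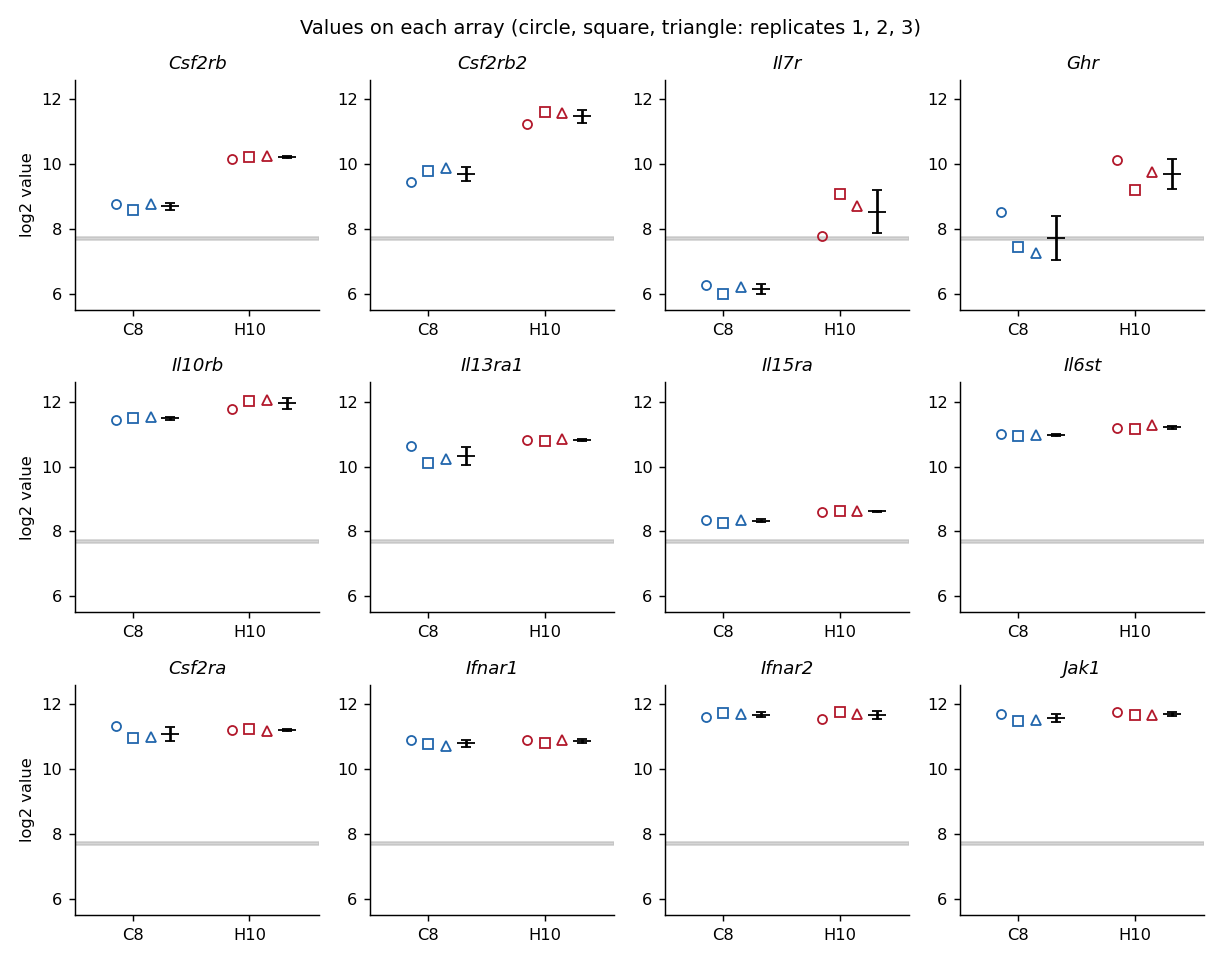
Log2 values of 12 members on each array (circle, square and triangle for replicates 1, 2 and 3), with black marks for means and SD (n = 3) and a grey band for the medians of the 6 arrays (7.65 to 7.74). Csf2rb, Csf2rb2, Il7r and Ghr separate the lines widely, and the values of Csf2ra, Ifnar1, Ifnar2 and Jak1 overlap.

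None of the 9 members that use gp130 or a chain related to it passed the test. Il6st encodes gp130, the shared chain of the receptors for IL-6, LIF, oncostatin M and IL-27. Its values were 11.2, 11.17 and 11.27 in H10 cells, against 11, 10.94 and 10.97 in C8 cells. Every H10 array was above every C8 array, by a small margin (log2 fold change 0.24 with an SE of 0.06 and adjusted p = 0.131). Il6ra, the private chain for IL-6, had 10.45, 10.22 and 10.18 in H10 cells, against 10.52, 10.41 and 10.29 in C8 cells, which overlapped, and a log2 fold change of -0.12 (95% interval -0.36 to 0.11, adjusted p = 0.759). Il12rb1 and Il12rb2, the chains of the IL-12 receptor, had -0.01 and 0.05, and Il27ra, the private chain for IL-27, had 0.01, with values of 7.63, 7.58 and 7.56 in H10 cells, against 7.49, 7.63 and 7.63 in C8 cells. Lifr, which binds LIF beside gp130, had 6.21, 6.17 and 6.18 in H10 cells, against 6.2, 6.38 and 6.28 in C8 cells (log2 fold change -0.10). Osmr, which binds oncostatin M beside gp130, had 6.45, 6.36 and 6.22 in H10 cells, against 6.32, 6.42 and 6.49 in C8 cells (log2 fold change -0.07). In all 3 genes the lines overlapped. Csf3r and Lepr, the receptors for G-CSF and leptin, had 0.01 and -0.07. Of these 9 members, 6 lay under the median of every array, and 3, Il6st, Il6ra and Il12rb1, lay above it.

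Of the type II receptors, which include those for interferon, none passed the test. Ifnar1 and Ifnar2 encode the chains of the receptor for type I interferons. Ifnar1 had values of 10.9, 10.8 and 10.88 in H10 cells, against 10.9, 10.77 and 10.7 in C8 cells (log2 fold change 0.07, 95% interval -0.11 to 0.25, adjusted p = 0.834). Ifnar2 had values of 11.54, 11.76 and 11.7 in H10 cells, against 11.61, 11.73 and 11.7 in C8 cells (log2 fold change -0.01, 95% interval -0.20 to 0.18, adjusted p = 0.979). For both genes the lines overlapped, and the intervals run from 0.928-fold to 1.19-fold for Ifnar1 and from 0.869-fold to 1.13-fold for Ifnar2. Ifngr1 and Ifngr2, the chains for interferon gamma, had log2 fold changes of -0.09 (95% interval -0.26 to 0.07) and 0.10 (95% interval -0.05 to 0.25). Il10rb is shared by the receptors for IL-10, IL-22 and type III interferons. Its values were 11.76, 12.03 and 12.04 in H10 cells, against 11.43, 11.49 and 11.54 in C8 cells. The lines did not overlap (log2 fold change 0.46 with an SE of 0.09 and adjusted p = 0.0731), and without H10 replicate 1, the lowest H10 array, the adjusted p was 0.032. Il10ra, the private chain for IL-10, lay on the other side, with values of 6.88, 7.26 and 7.17 in H10 cells, against 7.57, 7.27 and 7.36 in C8 cells. It was lower on every H10 array, by 0.01 at the nearest pair, and did not pass (log2 fold change -0.30 with an SE of 0.13 and adjusted p = 0.424).

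The Janus kinases measured did not pass the test either. Jak1, which serves most of these receptors, had values of 11.77, 11.67 and 11.65 in H10 cells, against 11.7, 11.48 and 11.51 in C8 cells (log2 fold change 0.13, 95% interval -0.06 to 0.33, adjusted p = 0.644). Jak2, the kinase of the beta chain and of the growth hormone receptor, had values of 9.44, 9.03 and 9.11 in H10 cells, against 9.55, 9.07 and 9.11 in C8 cells. Replicate 1 stood above the other arrays in each line by more than the difference between the lines (log2 fold change -0.05, 95% interval -0.44 to 0.34, adjusted p = 0.962). Tyk2, a kinase of the interferon, IL-10 and IL-12 receptors, had values of 9.65, 9.52 and 9.7 in H10 cells, against 9.98, 9.43 and 9.49 in C8 cells, where C8 replicate 1 was the highest (log2 fold change -0.01, 95% interval -0.37 to 0.35, adjusted p = 0.992).

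The DNA just before the start of the genes was read for sites of the factors that these receptors switch on. STAT dimers bind the GAS motif, searched here as TTCNNNGAA, which reads the same on both strands, and IRF9 with its partners binds an interferon response element, whose core was searched as GAAANNGAAA on both strands. The 250 bases before each start in RefSeq (GRCm38.p6) were used. For 28 of the 34 genes a window was given, 32 windows in all. Csf2rb and Il10rb were not among them. A GAS motif stood in the windows of 4 members, Csf2rb2, Il7r, Ifnar2 and Il12rb2, and 0 held the interferon response core. Over all 32851 windows, 7.02% held the first motif and 2.98% the second. The windows of the 4 members are shown because they set a called pair, Csf2rb2 and Il7r, beside a pair that did not pass the test, Ifnar2 and Il12rb2. The motif is in capitals and lies at 15 bases before the start in Csf2rb2 (chr15:78305722-78305971, minus strand), at 142 in Il7r (chr15:9529877-9530126, minus strand), at 214 in Ifnar2 (chr16:91372533-91372782, plus strand) and at 123 in Il12rb2 (chr6:67376189-67376438, minus strand), counted from its first base.
Csf2rb2: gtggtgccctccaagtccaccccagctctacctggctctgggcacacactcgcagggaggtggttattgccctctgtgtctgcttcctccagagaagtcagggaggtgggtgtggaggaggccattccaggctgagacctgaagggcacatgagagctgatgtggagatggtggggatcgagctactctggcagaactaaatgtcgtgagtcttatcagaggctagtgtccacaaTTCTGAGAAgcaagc
Il7r: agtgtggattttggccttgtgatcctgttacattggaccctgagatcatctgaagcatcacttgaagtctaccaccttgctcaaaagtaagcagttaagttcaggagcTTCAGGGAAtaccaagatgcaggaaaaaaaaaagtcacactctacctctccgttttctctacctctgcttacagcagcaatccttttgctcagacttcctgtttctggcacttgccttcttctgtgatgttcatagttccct
Ifnar2: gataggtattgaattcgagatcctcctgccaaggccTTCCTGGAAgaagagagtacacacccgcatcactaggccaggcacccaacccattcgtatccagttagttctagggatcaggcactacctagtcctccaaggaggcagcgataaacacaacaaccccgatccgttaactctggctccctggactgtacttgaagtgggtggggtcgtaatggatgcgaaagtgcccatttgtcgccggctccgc
Il12rb2: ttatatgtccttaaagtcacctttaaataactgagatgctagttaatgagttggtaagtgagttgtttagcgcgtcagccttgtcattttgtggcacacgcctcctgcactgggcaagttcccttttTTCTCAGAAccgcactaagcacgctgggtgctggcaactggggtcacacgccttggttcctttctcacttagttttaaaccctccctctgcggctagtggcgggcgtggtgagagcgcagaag
The letters are a description of these windows. Ghr, with 2 windows, held neither motif in them.

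Several members lie close together in the genome, so the genes around them were compared. By the gene order of GRCm38.p6, Csf2rb2 and Csf2rb lie next to each other on chromosome 15 with 0 measured genes between, and Il2rb follows after 5 more. Of the 20 measured genes nearest to Csf2rb2, 10 on each side, 1 was called higher, Csf2rb, and 0 were lower, with a median log2 fold change of -0.02. Ncf4, a subunit of the phagocyte NADPH oxidase on the other side of Csf2rb2, had 0.24 (adjusted p = 0.211). Ghr, Osmr, Lifr and Il7r lie in this order on the same chromosome. Osmr and Lifr lay between Ghr and Il7r and, as given above, had log2 fold changes of -0.07 and -0.10. Of the 12 nearest measured genes around Ghr and the 20 around Il7r, 0 were called in either direction, and the medians were 0.01 and -0.02. The neighbour of Il7r with the largest value was Rai14, an actin-binding protein, at 0.84 (adjusted p = 0.0871). On chromosome 16, Ifnar2, Il10rb, Ifnar1 and Ifngr2 follow each other without a measured gene between, and Il10rb had the largest log2 fold change of the 4, at 0.46 beside -0.01, 0.07 and 0.10. Of the 20 genes around Il10rb, 0 were called.

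**Figure D3:**
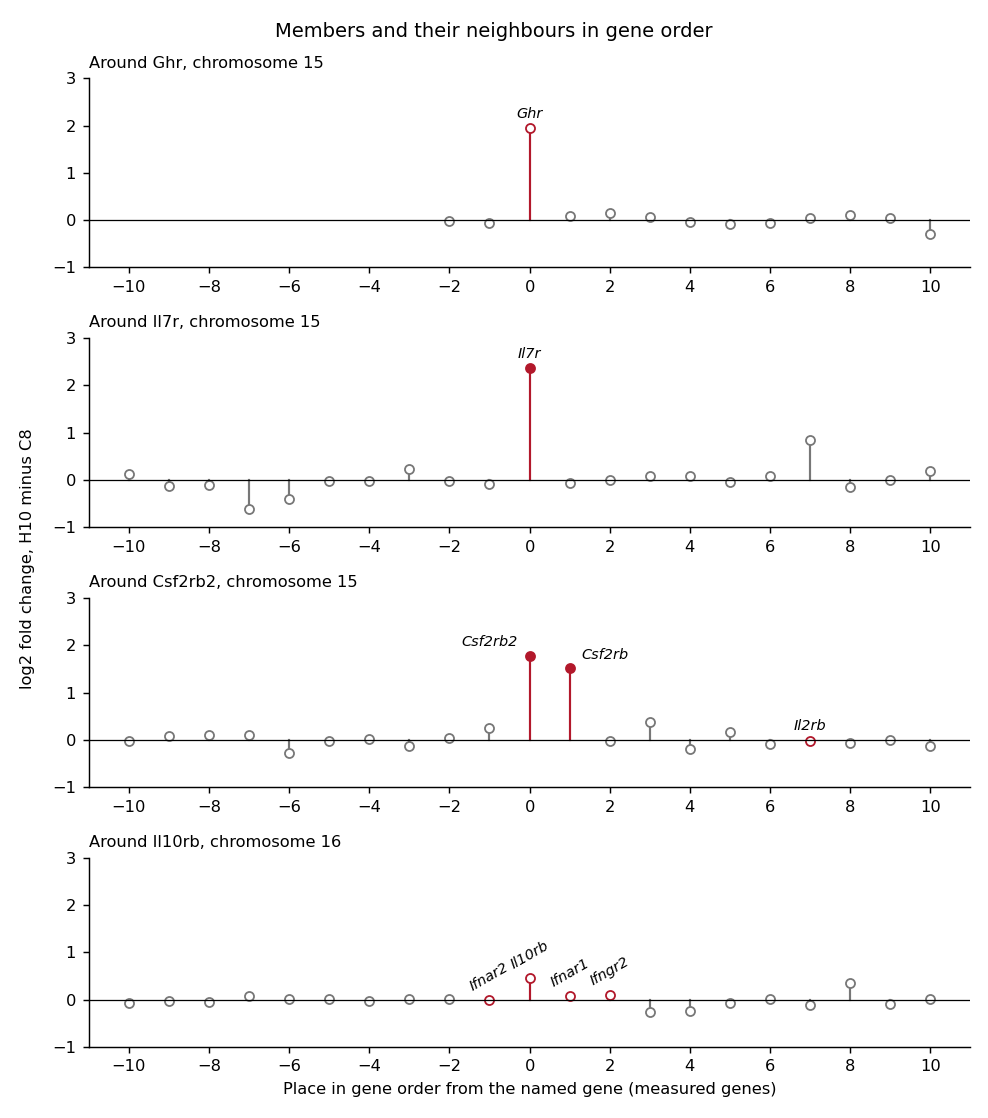
Log2 fold change (H10 minus C8, y axis) of the measured genes around Ghr, Il7r, Csf2rb2 and Il10rb in gene order (x axis, place from the named gene), with members in red and filled points past the test. Csf2rb2 and Csf2rb rise side by side at 1.78 and 1.51, while none of the neighbours of Ghr and Il7r passed the test.

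The rest of the pathway was described from lists of further receptor chains, ligands, STATs, inhibitors, adaptors and target genes. Of 134 such genes measured, H10 cells had 7 higher and 2 lower, or 5.22% and 1.49%, with a median log2 fold change of -0.01. Of 14 further receptor chains and 34 ligands, 0 were called in either direction (1 and 0 of the chains, 3 and 1 of the ligands, were higher and lower at an unadjusted p under 0.05 from limma). F3, tissue factor, a distant relative of the type II receptors that starts blood clotting, had the largest positive log2 fold change among the chains, at 0.65 (adjusted p = 0.208). Il23r, a chain of the IL-23 receptor, had -0.67 (adjusted p = 0.73), with overlap. Its values were 8.03, 9.89 and 9.79 in H10 cells, against 9.56, 10.2 and 9.97 in C8 cells, so H10 replicate 1 stood apart from all other arrays. No array showed 27 of the ligands, among them Il6, Tslp and Ifnb1, or 6 of the chains above its median.

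Among 7 genes of the STAT list, 1 was higher, Irf9, the partner of STAT2 in interferon signalling. Its values were 10.66, 10.91 and 10.85 in H10 cells, against 9.87, 9.65 and 9.71 in C8 cells, with no overlap (log2 fold change 1.06 with an SE of 0.09 and adjusted p = 0.00405 from limma). Stat2 had 0.66 (adjusted p = 0.0765). Stat5a and Stat5b, which act below the beta chain, the IL-7 receptor and the growth hormone receptor, had log2 fold changes of -0.03 (95% interval -0.22 to 0.15) and 0.02 (95% interval -0.19 to 0.22). Of 23 inhibitors and phosphatases, 2 were higher and 0 lower, with a median log2 fold change of -0.06. At an unadjusted p under 0.05 from limma, 5 were higher and 4 lower. All H10 arrays lay above all C8 arrays for 5, or 21.7%, beside 7.74% of all genes. All C8 arrays lay above all H10 arrays for 6, or 26.1%, beside 12.7% of all genes. Usp18, which binds Ifnar2 and keeps Jak1 from it, had 3.79 (adjusted p = 0.00119). It is among the genes that the paper names from these arrays. Like Il7r, it was among those followed by RT-qPCR, where the paper reports a significant rise for CD109 only. Ptpn1, a phosphatase of JAK2 and TYK2, had 0.55 (SE 0.10 and adjusted p = 0.0466). Cish and Socs2, feedback inhibitors that STAT5 induces, had -0.08 and -0.08 (adjusted p = 0.762 and 0.826 from limma). Cish lay under the median of every array, and Socs2 lay above it on only 1 C8 array, so a small difference may be hidden. Of 13 adaptors, 0 were called (2 higher and 0 lower at an unadjusted p under 0.05 from limma). The call of Ptpn1 was lost without any 1 of the 6 arrays (adjusted p = 0.0504 to 0.169).

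Of 8 targets of STAT5, 1 was higher and 1 was lower, with a median of -0.28. At an unadjusted p under 0.05 from limma, 1 was higher and 4 were lower, and for 4 of the 8, or 50%, all C8 arrays lay above all H10 arrays, beside the 12.7% of all genes. Bcl6, a repressor of osteoclast genes that Prdm1 opposes, had values of 9.74, 9.79 and 9.82 in H10 cells, against 10.38, 10.72 and 10.74 in C8 cells (log2 fold change -0.83 with an SE of 0.11 and adjusted p = 0.0151). Igf1, the growth factor that growth hormone induces in liver, had values of 8.05, 7.85 and 7.76 in H10 cells, against 6.9, 7.01 and 7.12 in C8 cells (log2 fold change 0.88 with an SE of 0.10 and adjusted p = 0.00939). The 2 moved in opposite directions, each without overlap between the lines. The list was not split into genes that STAT5 induces and genes that it represses. Its counts and median therefore give no direction of STAT5 activity, which was not measured. Of 12 targets of STAT3, 0 were called (4 higher and 0 lower at an unadjusted p under 0.05 from limma); Il1rn, the antagonist of IL-1, had 1.11 (adjusted p = 0.0516). Of 12 targets of STAT6, 1 was lower, Pparg, a nuclear receptor, with -0.37 (adjusted p = 0.0488), and at an unadjusted p under 0.05 from limma 0 were higher and 2 lower. Leaving out 1 array ended the calls of Pparg (each array but C8 replicate 1, adjusted p = 0.118 to 0.22), of Bcl6 (each but C8 replicate 1, 0.0583 to 0.0743) and of Igf1 (C8 replicate 2, 0.0523), while Irf9 and Usp18 passed without any 1 array.

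**Figure D4:**
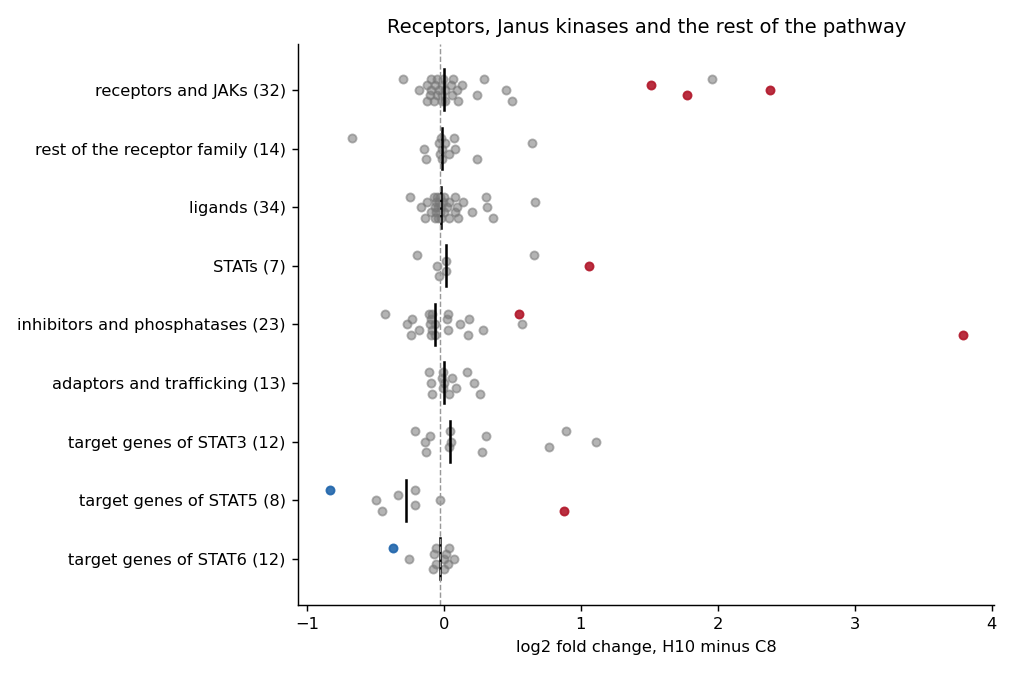
Log2 fold change (H10 minus C8, x axis) of the receptors and Janus kinases and of the genes in the lists of the pathway, with the number measured in brackets, a black bar for the median of the list and a dashed line for the median of all genes (-0.03). Red and blue points were higher and lower past the test; Irf9 and Usp18 passed at 1.06 and 3.79, and the median of the STAT5 targets was -0.28.

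The label of a macrophage line was checked against markers. Of 9 macrophage markers, 6 lay above the median on all arrays, beside 10570 of all 19930 genes. Among them were Csf1r, Cd68, Lyz2, Cd14 and Spi1, with line means from 12.70 to 14.02. Mertk lay under the median on all arrays, and Fcgr1 on all C8 arrays. Adgre1, a surface receptor of mature macrophages, was 2.02 higher on the log2 scale in H10 cells (adjusted p = 0.00114 from limma). It was the only 1 of the 9 that was called, and the median log2 fold change of the list was 0.05. All H10 arrays lay above all C8 arrays for 3 of the markers, or 33.3%, beside 7.74% of all genes. The reverse held for 2, Csf1r and Mertk, or 22.2%, beside 12.7% of all genes. The mean of the list ran from 11.14 to 11.24 on the H10 and from 10.8 to 10.86 on the C8 arrays. Of 10 osteoclast markers 6 were called higher in H10 cells, or 60%, beside 1.85% of all genes, and 0 were lower. Nfatc1, Itgb3, Calcr and Mmp9 did not pass, with log2 fold changes of 0.14, 0.06, 0.07 and -0.34. Il7r, Il2ra and Il2rb are also markers of lymphocytes. Of 7 T cell, 5 B cell and 5 NK cell markers, 0 were called higher or lower (0 higher, and 2, 1 and 0 lower, at an unadjusted p under 0.05 from limma), and all but Cd3e lay under the median of every array. The means of these lists ran from 6.95 to 6.98, 6.37 to 6.40 and 5.80 to 5.88 on the H10 arrays and from 6.97 to 7.12, 6.32 to 6.56 and 5.81 to 5.96 on the C8 arrays. The part of the macrophage, osteoclast and lymphocyte lists in the differences of the receptors was not tested. The dendritic cell and neutrophil lists held 6 genes each with 0 called (0 and 0 at an unadjusted p under 0.05 from limma), and the fibroblast list held 6 genes with 0 called (1 higher at an unadjusted p under 0.05 from limma). That gene was Dcn, with no overlap between the lines and a log2 fold change of 1.48 (adjusted p = 0.074 from limma). The fibroblast list had 3 genes above the median on all arrays, Col1a1, Col1a2 and Col3a1, so this measure alone does not mark a cell type.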

How the data were processed

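Gene expression was measured on Affymetrix Mouse Gene 1.0 ST arrays, 3 of H10 and 3 of C8 cells, grouped as the labels name them. The deposited values are log2 values that the authors normalized with RMA (background correction, quantile normalization and probe summary). Affymetrix Expression Console is the tool in the submitters' processing notes, and its version is not given in the sources used here. A total of 35545 features were tabulated, and array medians were 7.65 to 7.74. Within a line, the difference between 2 arrays had an SD of 0.20 to 0.29, and between lines of 0.30 to 0.34. Precision is limited by the 3 arrays per line.

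Gene names came from the platform annotation, which gave 21781 features 1 symbol, 1621 more than 1 and 12143 none. The feature with the highest mean stood for a gene; each member had 1 feature. The test was that of limma 3.58.1 under R 4.3.3 (lmFit, eBayes, two-sided, 4 residual and 2.57 prior degrees of freedom), as in the paper's methods, with Benjamini-Hochberg values over all features and no filter. The script was tested on simulated data. An exact permutation test of 3 against 3 arrays cannot reach these thresholds.

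The members and lists were chosen with earlier results of these data known. All members are named; full values are given for those past the test, for those at an unadjusted p under 0.05 without overlap, and for chains that pair with them; from each list up to 4 called genes a direction and up to 2 others. The values of the interferon receptor chains and kinases, and the further ligands, STATs and inhibitors named, fall outside this rule and were chosen after values were seen. Of the pathway names, 10 had no feature of 1 symbol. One list of target genes is in the pathway's totals and is not reported here. Promoter windows are RefSeq's. No protein sequence was used here, so a planned comparison of the beta chains' proteins was not run. The alternatives were fits without 1 array or both replicate 1 arrays, a block on replicate number, arrays centred on their median or quantile normalized again, dim features left out, features averaged per gene, another variance prior and other thresholds. Plots used matplotlib 3.10.9 (Python 3.11.15).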

Additional observations from a re-analysis of the deposited data

How the results depend on the processing

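Csf2rb and Csf2rb2 kept their call in all 14 alternative settings run for each gene, and 25 of the 29 members not called were called in none; 10 of those 29 changed sign in at least 1 setting. The count of members higher in H10 cells, 3 as reported, was 5 without the replicate 1 arrays of both lines, 6 with the filter on dim features (17939 features, 22 members left), 7 with features averaged per gene and only named genes tested, 5 with the trend and robust prior, 5 when adjusted over 1 feature per gene, 2 at an FDR of 0.01 and 1 at a fold of 5 or more; without 1 array it was 2 to 4. The count of members lower was 0 in every setting. For the other pathway genes, 7 higher and 2 lower as reported, the counts were 4 and 1 with the replicate number as a block, 14 and 4 with the filter, 17 and 5 with averaged features, 4 and 0 at an FDR of 0.01, and 1 and 0 at a fold of 5 or more; the trend and robust prior gave 4 lower, leaving out both replicate 1 arrays gave 9 higher and 1 lower, and leaving out 1 array gave 3 to 8 higher and 0 to 2 lower. Over all genes, 369 higher and 208 lower as reported, the counts were 225 and 71 with the block, 164 and 50 at an FDR of 0.01, 41 and 2 at a fold of 5 or more and 648 and 531 with averaged features; the filter gave 423 lower, leaving out both replicate 1 arrays gave 78 lower, and leaving out 1 array gave 152 to 346 higher and 40 to 126 lower. The cause of these shifts was not tested. Some of the settings put fewer features or arrays into a fit, and the block and the trend and robust prior used all of them.

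The replicate numbers were not taken to pair the arrays: the correlation of same-numbered arrays' deviations from their line's mean, over features, was 0.17, 0.00 and -0.12. Between arrays of other numbers it ran from -0.18 to 0.23, and 2 of the 6 arrays correlated best with their own number. With the replicate block the rise of Il7r did not pass (adjusted p = 0.0557) and that of Ghr did (adjusted p = 0.0317). Of the other pathway genes named, Igf1 (adjusted p = 0.0601), Pparg (0.152) and Ptpn1 (0.0541) lost their calls with the block. Ghr, Il10rb, Il15ra and Il13ra1 passed in 7, 4, 3 and 3 of the 14 settings. The 10 dim members lay under the median of every array. How near they were to background was not measured, so a small difference in them may be hidden.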
